A study of Mus musculus with 12 samples.

Results

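B cell and immunoglobulin genes were examined in mouse lung as all probe sets that the platform annotation assigns to Ighm, Jchain, Cd79a, Cd79b, Ms4a1 and Cd74. These 6 of the 12393 genes named on the array had 17 of its 22626 probe sets, of which 11 passed a filter on dim signals (15882 of all probe sets did) and 6, all of Ighm, did not. A further 4 probe sets list Ighm together with other immunoglobulin genes and were not counted as members. The study compared Nrf2 wild-type (Nrf2+/+) and Nrf2-deficient (Nrf2-/-) mice of the CD-1/ICR strain, called wild type and knockout below, after 2 h of spontaneous breathing (SpV, the controls) or of mechanical ventilation with a high tidal volume of 30 ml/kg (HVT). Total RNA of each lung was hybridised to an Affymetrix Murine Genome 430A array, with 3 arrays in each of the 4 groups. The left lobe is named as the source of 11 arrays and whole lung as that of the first wild-type SpV array. In GRCm38.p6 (RefSeq) the constant region of Ighm lies at chr12:113418826-113422730, Jchain at chr5:88519809-88527897, Cd79a at chr7:24897497-24901858, Cd79b at chr11:106311341-106314562, Ms4a1 at chr19:11249679-11266149 and Cd74 on chromosome 18. The labels do not give the deleted part of the gene, nor the age or sex of the mice.

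A B cell carries its antibody on the surface as a receptor, in which the heavy chain of IgM, encoded by Ighm, is coupled to the signalling pair Cd79a and Cd79b. Ms4a1 encodes CD20, a membrane protein of mature B cells that plasma cells lack. Plasma cells secrete antibody and make the J chain (Jchain), which links IgM and IgA into polymers, and in mucosal tissue such polymers are carried across the epithelium by the receptor Pigr. Cd74 is the invariant chain that accompanies MHC class II molecules, and macrophages, dendritic cells and alveolar type II cells make it as well as B cells.

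Values are normalized signals of the array (intensity units), and differences are on the log2(signal + 16) scale with the SE of a limma fit over all 15882 probe sets and all 12 arrays. A probe set was called at a Benjamini-Hochberg adjusted p under 0.05. Nfe2l2, the gene of Nrf2, read at least 2152.3 on every wild-type array (up to 3307.9) and at most 61.5 on every knockout array (down to 36.3). Trimmed mean signals before normalization ran from 181 to 468 on 11 arrays, and knockout SpV array 1 stood apart at 73.4. For beta-actin, its 3' to 5' signal ratio, a measure of RNA degradation, was 8.76 against 1.39 to 3.10 elsewhere. Results that involve the knockout controls are therefore given with and without that array. In these lung extracts, more cells of a type and more RNA per cell cannot be told apart.

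The members are described in 2 sets. Jchain and the brighter Ighm probe sets were higher on most knockout arrays. The largest difference was 4.11 on the log2 scale, for Jchain once a degraded array was left out. Cd79a, Cd79b, Ms4a1 and Cd74 did not pass in any comparison of genotypes. Over 12 arrays Jchain did not pass either (lowest limma adjusted p = 0.058). The sets are not cleanly divided, as Cd74 was also highest on knockout SpV arrays 2 and 3. Ms4a1 1423226_at correlated with Jchain at r = 0.55. The difference between the sets was not itself tested. Promoter sequences from RefSeq (GRCm38.p6) are shown side by side for 2 of the 6 genes, 1 from each set. They are Jchain (chr5:88527848-88528147, minus strand) and Cd79a (chr7:24897247-24897546, plus strand). Each run below covers 250 bases before the start site and 50 after it, with matches to 3 motifs in capitals: the octamer ATGCAAAT, the PU.1 core GAGGAA and the E box CANNTG, on both strands.
Jchain: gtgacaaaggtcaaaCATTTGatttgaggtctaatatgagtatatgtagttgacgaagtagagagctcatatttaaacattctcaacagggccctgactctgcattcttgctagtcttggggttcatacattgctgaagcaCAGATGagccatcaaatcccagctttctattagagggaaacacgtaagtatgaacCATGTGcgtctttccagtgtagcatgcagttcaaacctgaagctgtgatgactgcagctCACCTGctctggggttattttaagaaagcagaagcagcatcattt
Cd79a: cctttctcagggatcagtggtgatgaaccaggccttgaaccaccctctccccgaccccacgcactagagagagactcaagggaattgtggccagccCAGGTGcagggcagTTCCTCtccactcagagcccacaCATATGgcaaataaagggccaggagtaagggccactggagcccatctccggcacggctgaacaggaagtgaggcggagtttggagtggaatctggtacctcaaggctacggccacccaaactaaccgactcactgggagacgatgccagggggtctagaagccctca
The Jchain window held 4 E boxes and no match to the octamer or the PU.1 core. The Cd79a window held 2 E boxes and 1 PU.1 core. An E box occurs in 72.3% of the 32851 promoter windows of this length, the PU.1 core in 28.3% and the octamer in 1.74%, so these matches are a description of the sequence only.

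**Figure D1:**
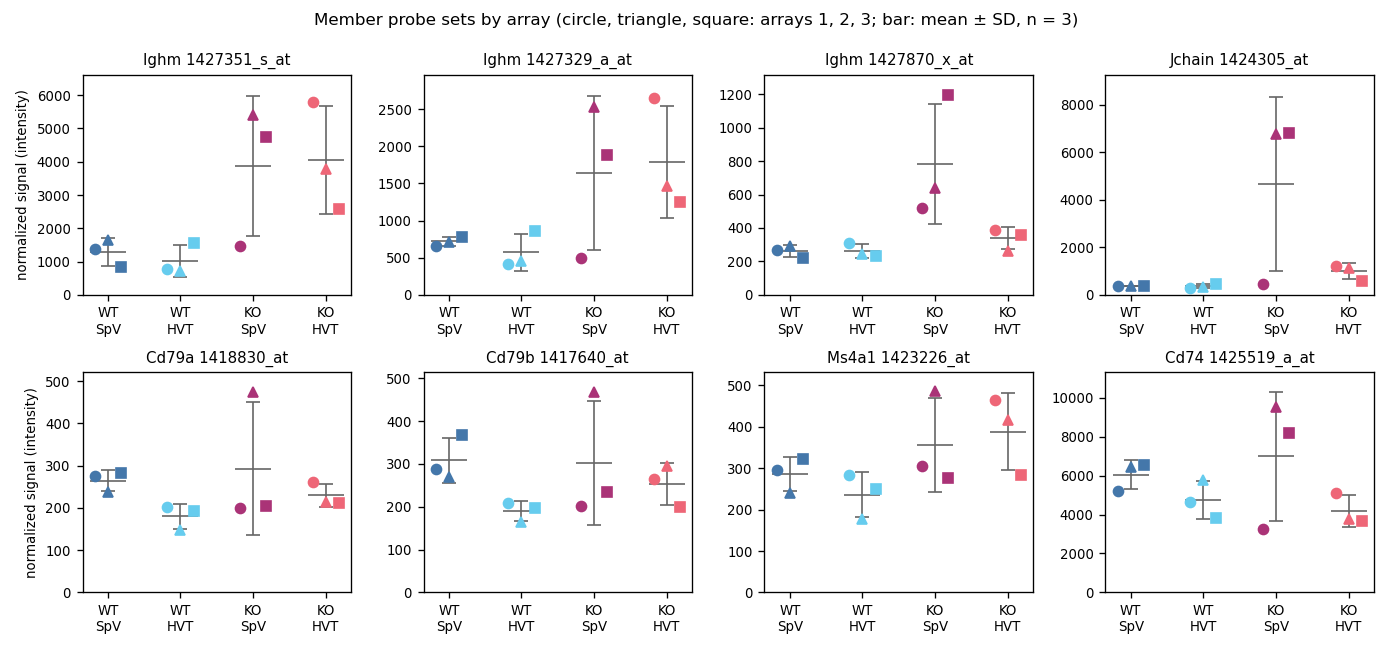
Normalized signal (intensity, linear axis from 0) of 8 member probe sets on every array, by genotype (WT, KO) and breathing (SpV, HVT); circles, triangles and squares are arrays 1, 2 and 3, and the bar is the mean ± SD (n = 3). Jchain is at 6763.5 and 6796.8 on knockout SpV arrays 2 and 3 only, while Ighm 1427351_s_at is at 2592.4 or above on 5 of the 6 knockout arrays, and Cd79a, Cd79b and Ms4a1 overlap between most groups.

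Jchain showed the widest range of the members on the log2 scale. In wild-type SpV lungs its signals were 390.9, 361.4 and 362.8, and in wild-type HVT lungs 290.9, 324.5 and 463.4. In knockout SpV lungs they were 453.6, 6763.5 and 6796.8 for arrays 1, 2 and 3, and in knockout HVT lungs 1220.6, 1140 and 596.2. Thus 5 of the 6 knockout arrays lay above every wild-type array, and the exception was the degraded array, which at 453.6 lay within the wild-type range. The group means ranked knockout SpV (4671.3 ± 3652.7, SD, n = 3), knockout HVT (986 ± 340), wild-type SpV (372 ± 16.6) and wild-type HVT (360 ± 91.5), and the wild-type groups did not differ beyond their spread. Over 12 arrays the genotype difference was 2.85 ± 0.77 at spontaneous breathing (adjusted p = 0.14), 1.38 ± 0.77 under ventilation (adjusted p = 0.493) and 2.11 ± 0.55 averaged over both (adjusted p = 0.058), none of which passed.

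With knockout SpV array 1 left out, Jchain was called higher in the knockout under both kinds of breathing. The difference was 4.11 ± 0.27 at rest (limma adjusted p = 2.07e-05) and 1.38 ± 0.24 under ventilation (adjusted p = 0.00962). The comparison under ventilation uses no knockout SpV array, and its difference was 1.38 in both fits. Its call came from the SE alone, which all groups share and which fell from 0.77 to 0.24. The ventilation difference in the knockout was then -2.80 ± 0.27 (adjusted p = 0.00189), compared with -0.07 ± 0.24 in the wild type. The interaction, which tests whether the response to ventilation differs between genotypes, was -2.73 ± 0.37 (adjusted p = 0.0211). With all 12 arrays the ventilation difference in the knockout was -1.54 ± 0.77 (adjusted p = 0.488) and the interaction -1.47 ± 1.09 (adjusted p = 1). Leaving out knockout SpV array 2 or array 3 instead gave 2.21 in both fits at rest (adjusted p = 0.213 and 0.323), -0.91 and -0.90 for ventilation in the knockout (adjusted p = 0.763 and 0.76) and -0.84 and -0.83 for the interaction (adjusted p = 0.998 and 1). The fit without array 1 leaves 2 knockout controls, and those 2 arrays also had the brightest scans, at trimmed means of 468 and 445. The knockout HVT arrays they are set against had 193, 245 and 181, below the 278 to 438 of the wild-type arrays. Their actin ratios were 3.10, 2.21 and 3.02, against 1.39 and 1.52 on those 2 controls. The part of array quality in the ventilation difference was not tested.

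Ighm was measured by 11 probe sets that did not behave alike. The brightest, 1427351_s_at, read 1366.6, 1650.4 and 839.3 in wild-type SpV, 766, 709.1 and 1559.8 in wild-type HVT, 1458.2, 5393.5 and 4730.1 in knockout SpV, and 5806.2, 3779.6 and 2592.4 in knockout HVT lungs. All knockout HVT arrays were above all wild-type arrays, and of the knockout controls only array 1 fell among the wild types. The averaged genotype difference was 1.71 ± 0.34 (adjusted p = 0.0194), with 2.00 ± 0.48 under ventilation (adjusted p = 0.104) and 1.42 ± 0.48 at rest (adjusted p = 0.249). The difference passed in each once knockout SpV array 1 was left out, at 2.00 ± 0.25 averaged (limma adjusted p = 0.000918) and 2.00 ± 0.38 at rest (adjusted p = 0.0203). Under ventilation it was 2.00 ± 0.34 (adjusted p = 0.00806). That comparison uses no knockout SpV array, so its estimate stayed the same and only the SE, shared by all groups, fell from 0.48. The averaged call was lost without wild-type SpV array 3 (1.58), without wild-type HVT array 2 (1.61) or without knockout HVT array 1 (1.56), with the adjusted p between 0.000918 and 0.0592 over the 12 fits that each left out 1 array. On the deposited values without scaling it was 1.0 ± 0.53 (adjusted p = 0.307).

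The next brightest Ighm probe set, 1427329_a_at, followed the same arrays. It read from 408.7 to 860.7 on the 6 wild-type arrays, 502.6, 2533.4 and 1888.6 in knockout SpV lungs and 2656.1, 1460.8 and 1255.3 in knockout HVT lungs. Its averaged genotype difference was 1.25 ± 0.35 (adjusted p = 0.0734), and 1.60 ± 0.22 without knockout SpV array 1 (adjusted p = 0.00167). Across the 12 arrays it correlated with 1427351_s_at at r = 0.95, as a description of 2 probe sets of 1 gene that share arrays and normalization. Neither probe set passed for ventilation. The differences were -0.38 ± 0.48 and -0.39 ± 0.50 in the wild type and 0.20 ± 0.48 and 0.33 ± 0.50 in the knockout, each at adjusted p = 0.845 or above.

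Another pattern was seen in dimmer Ighm probe sets, highest in the knockout controls. Probe set 1427870_x_at read 519.5, 638.1 and 1192.9 in knockout SpV lungs, above the 221.3 to 309.1 of the wild-type arrays and the 390.1, 263.3 and 358.5 of the knockout HVT arrays. Here the degraded array was also high, but only after scaling. Its deposited value was 76.3, against 170.2 to 203.9 on the wild-type arrays. The genotype difference at rest was 1.45 ± 0.27 (adjusted p = 0.0395), the only member called in that comparison over 12 arrays, and the averaged difference was 0.89 ± 0.19 (adjusted p = 0.0276). Of the 12 fits that left out 1 array, 2 kept the call at rest, those without knockout SpV array 1 and without knockout HVT array 2. The adjusted p lay between 0.00589 and 0.194, and the lowest difference was 1.11, without knockout SpV array 3. The averaged call was kept in 5 of 12 fits (without wild-type HVT array 1, any knockout SpV array or knockout HVT array 2), with differences from 0.72 to 1.02 and the adjusted p up to 0.082. Without scaling the difference at rest was 0.97 ± 0.64 (adjusted p = 0.854) and the averaged one 0.27 ± 0.45 (adjusted p = 0.607), while the filter and the intensity trend moved the p at rest alone (adjusted p = 0.0588 and 0.0553 without them). Ventilation gave -1.11 ± 0.27 in the knockout (adjusted p = 0.225), and -1.36 ± 0.26 without knockout SpV array 1 (adjusted p = 0.0143).

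Probe set 1425247_a_at was low in the wild type, from 27.6 to 90.1, and read 129.4, 324 and 698.9 in knockout SpV against 84.5, 23.3 and 102.6 in knockout HVT lungs. It reached the filter's scaled signal of 100 on 0 of the 6 wild-type arrays, on all 3 knockout SpV arrays and on 1 knockout HVT array. On knockout SpV array 1 this rested on scaling: the deposited value was 22, against 15.7 to 73.3 on the wild-type arrays. High knockout arrays were thus a condition for its being tested, and its differences are given as a description that supports nothing. Its difference at rest was 2.10 ± 0.56 (adjusted p = 0.137) and its difference with ventilation in the knockout -2.08 ± 0.56 (adjusted p = 0.251). Without knockout SpV array 1 these were 2.71 ± 0.51 (adjusted p = 0.0198) and -2.69 ± 0.51 (adjusted p = 0.0135). The interaction did not pass for 1425247_a_at (-2.19 ± 0.80, limma adjusted p = 0.986) or for 1427870_x_at (-1.12 ± 0.39, adjusted p = 0.986). The fifth to pass the filter, 1452535_at, ranged from 71.8 to 157.1 over all arrays and reached that signal on 2 wild-type arrays, and its genotype differences were 0.35 ± 0.27 at rest and 0.10 ± 0.27 under ventilation.

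The other 6 Ighm probe sets stayed under the filter of a scaled signal of 100 on at least 3 arrays and were not tested. Of these, 1427756_x_at read 177.7 and 390.1 on knockout SpV arrays 2 and 3 and 24.4 or less on the other 10, and 1425324_x_at read 158.6 and 247.8 on the same arrays and 44.2 or less elsewhere. The remaining 4 stayed at 92.8 or less on every array. The third highest scaled signal of a probe set, which decided the filter, was 133.8 for the lowest member that passed and 58.9 for the highest that did not. Probe sets ending in x_at or s_at can bind related transcripts, so the 11 do not give a single level of Ighm.

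**Figure D2:**
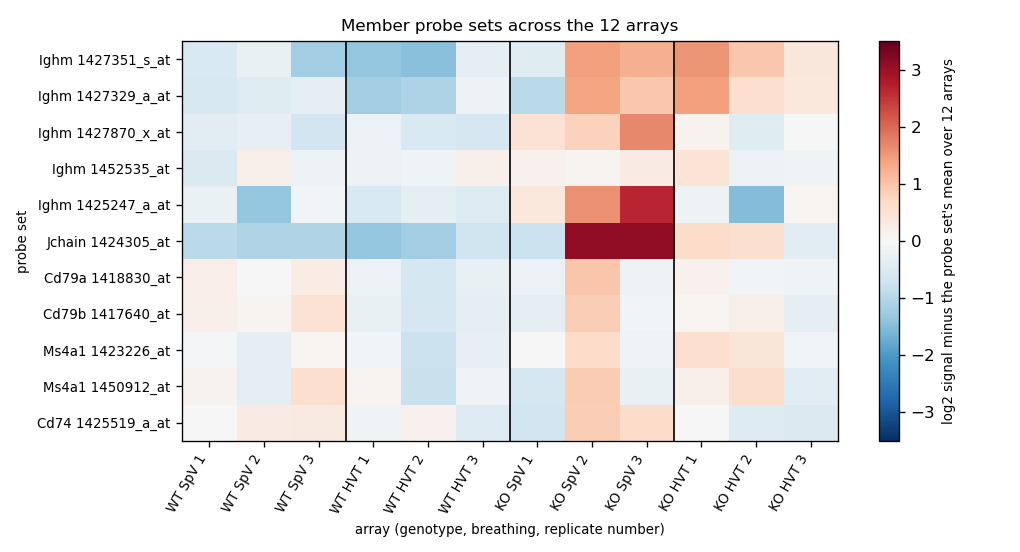
Log2 signal of the 11 member probe sets that passed the filter (rows) on the 12 arrays (columns, by genotype, breathing and replicate number), each row centred on its own mean; red is above and blue below. Jchain, all 5 Ighm rows and Cd74 are above their own mean on knockout SpV arrays 2 and 3, 1452535_at only slightly, and knockout SpV array 1 resembles the wild-type columns in the Jchain row and in the upper pair of Ighm rows.

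Cd79a and Cd79b, the signalling pair of the B cell receptor, moved together and showed no called difference. Cd79a read 274.8, 236.7 and 283.2 in wild-type SpV, 201.2, 146.7 and 193.3 in wild-type HVT, 200.9, 474.4 and 204 in knockout SpV, and 261.3, 214.5 and 212.8 in knockout HVT lungs. Cd79b read 287.4, 270.5 and 367.4, then 209.4, 163.6 and 196, then 202.4, 469.1 and 234.8, then 263.7, 296.1 and 198.6 in the same order. For both genes knockout SpV array 2 was the highest of the 12, and the 3 wild-type HVT arrays lay below the 3 wild-type SpV arrays. That arrangement, the second group wholly lower, was shown by 8.01% of all probe sets in the ventilation comparison of the wild type. The difference was -0.52 ± 0.28 for Cd79a (adjusted p = 0.775) and -0.65 ± 0.28 for Cd79b (adjusted p = 0.623). Red cell markers moved between the same groups, their summed signal lying between 2811 and 3220 in wild-type SpV and between 935.5 and 1341 in wild-type HVT lungs, and the part of blood left in the lung was not tested.

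The genotype differences of the pair were small relative to their error. At rest they were 0.03 ± 0.28 for Cd79a and -0.11 ± 0.28 for Cd79b, with 95% intervals from -0.58 to 0.64 and from -0.71 to 0.49. Under ventilation they were 0.33 ± 0.28 and 0.38 ± 0.28. Without knockout SpV array 1 the values at rest were 0.23 ± 0.28 and 0.12 ± 0.27, and neither passed. Without knockout SpV array 2, the highest, they were -0.36 and -0.46.

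Ms4a1 was measured by 2 probe sets. The brighter, 1423226_at, read 295.4, 241.1 and 322.6 in wild-type SpV, 283.9, 176.1 and 249 in wild-type HVT, 304.8, 485.8 and 275.8 in knockout SpV and 464.4, 415.4 and 284.4 in knockout HVT lungs. The knockout HVT arrays lay just above the wild-type HVT arrays (284.4 against 283.9 at the nearest), and the difference under ventilation was 0.68 ± 0.26 (adjusted p = 0.309). The dimmer 1450912_at, from 49 to 191.6 over all arrays, gave 0.40 ± 0.42 in that comparison and -0.10 ± 0.42 at rest, where 1423226_at gave 0.26 ± 0.26.

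Cd74 was the brightest member. Its signals were 5191.3, 6424.9 and 6542.2 in wild-type SpV, 4664.8, 5767.2 and 3837.1 in wild-type HVT, 3236.1, 9536.5 and 8191.8 in knockout SpV, and 5128.9, 3795.1 and 3661.3 in knockout HVT lungs. Knockout SpV arrays 2 and 3 were again the highest and array 1 the lowest of the 12. Ventilation gave -0.61 ± 0.32 in the knockout (adjusted p = 0.524) and -0.36 ± 0.32 in the wild type (adjusted p = 0.902). Leaving out knockout SpV array 1, Cd74 fell with ventilation in the knockout, at -1.05 ± 0.19 (adjusted p = 0.0105), and the genotype difference at rest was 0.53 ± 0.19 (adjusted p = 0.178). Leaving out array 2 or array 3 of that group instead gave -0.32 and -0.43 with ventilation (adjusted p = 0.798 and 0.754) and -0.23 and -0.11 at rest (adjusted p = 0.759 and 0.923).

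Counted together over 12 arrays, limma called 1 of the 11 probe sets for genotype at rest, where it called 0.504% of all probe sets. It called 2 of 11 for the averaged genotype difference (3.24% of all), and 0 under ventilation (0.636% of all), where 3 had an unadjusted p under 0.05 (12.4% of all). It called 0 for ventilation in the wild type (0.0252% of all) and 0 in the knockout (0% of all), with 1 (7.29% of all) and 2 (11.2% of all) at an unadjusted p under 0.05. The interaction and the averaged ventilation difference had 0 called members each, where 0% and 0.126% of all were called. In either case 2 had an unadjusted p under 0.05 (5.01% and 13.1% of all). The median member differed by 0.35 between the genotypes at rest and by 0.38 under ventilation, against -0.02 and 0 for all probe sets. Groups did not overlap, with the knockout higher, for 3 of 11 at rest (8.52% of all) and for 5 of 11 under ventilation (11.4% of all). With ventilation the HVT group was wholly lower for 2 of 11 in the wild type (8.01% of all) and for 2 of 11 in the knockout (7.49% of all). Probe set 1425247_a_at, tested only because knockout arrays were high, is in these counts and medians. Without it, groups did not overlap for 2 of 10 probe sets at rest and for 1 of 10 with ventilation in the knockout. An unadjusted p under 0.05 was then held by 1 of 10 for ventilation in the knockout, for the interaction and for averaged ventilation. The median was then 0.3 at rest and 0.39 under ventilation.

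More members were called once knockout SpV array 1 was left out, as were more of all probe sets. The counts were 5 of 11 at rest (1.89% of all), 3 under ventilation (4.65% of all), 5 for the averaged genotype difference (5.42% of all) and 4 for ventilation in the knockout (6.35% of all). They were 1 for the interaction (0.642% of all), 4 for the averaged ventilation difference (6.09% of all) and 0 for ventilation in the wild type (0.315% of all). Neither the genotype comparison under ventilation nor ventilation in the wild type uses a knockout SpV array. Member differences there stayed nearly the same, and what changed was the SE, which all groups share. The 5 higher at rest were Jchain and 4 Ighm probe sets, and the 4 that fell with ventilation in the knockout were Jchain, 1427870_x_at, 1425247_a_at and Cd74. Without 1425247_a_at, 4 of 10 were called at rest, 4 for the averaged genotype difference, 3 for ventilation in the knockout and 3 for averaged ventilation. Comparisons that use the same knockout controls share those arrays, so a high control group enters both the genotype and the ventilation difference.

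**Figure D3:**
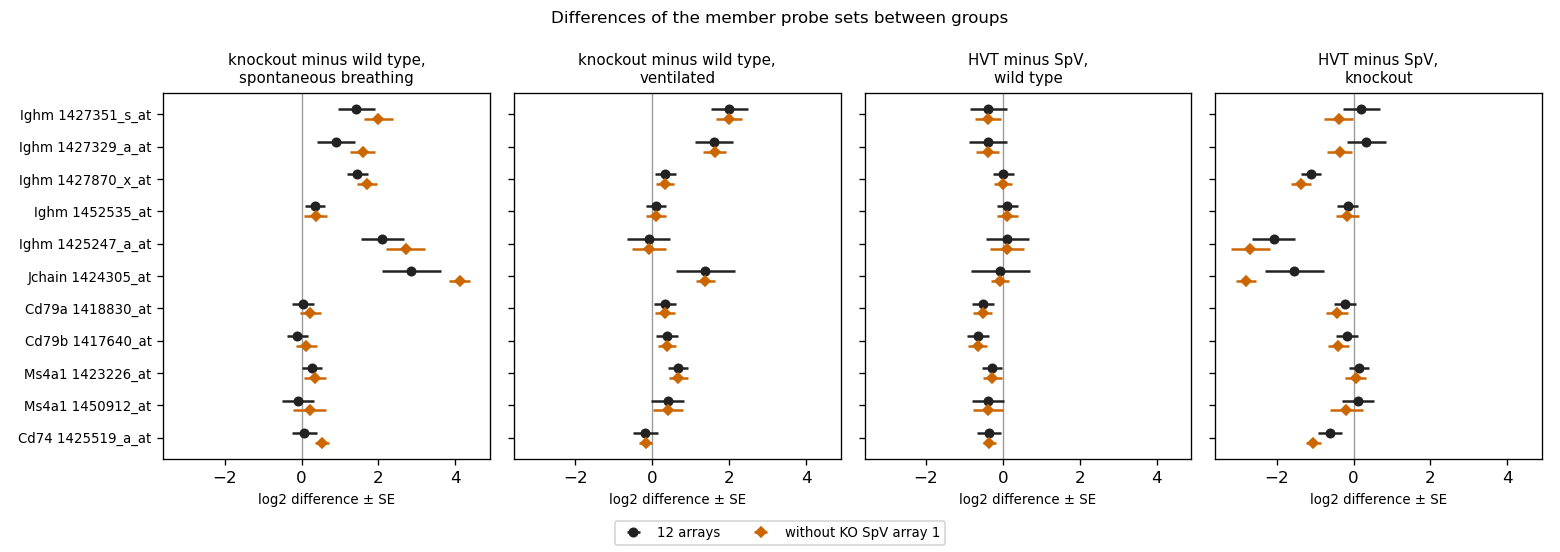
Log2 difference ± SE (limma, horizontal axis) of the 11 member probe sets (rows) between genotypes at rest and under ventilation and between HVT and SpV in each genotype, over 12 arrays (circles) and without knockout SpV array 1 (diamonds). Jchain moves from 2.85 to 4.11 at rest and from -1.54 to -2.80 with ventilation in the knockout when that array is left out, while the 2 Cd79 rows lie between -0.66 and 0.38 in all 4 panels.

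Igha and Igkv8-30 were high on the same 2 arrays as Jchain. The array carries 26 probe sets that name only an immunoglobulin gene other than Ighm, and 8 of them, for 6 genes, passed the filter. Of these 8, the probe sets of Igkv6-14 and Igkv9-120 reached the filter's signal on 0 wild-type arrays and that of Ighg3 on 1, so they passed through knockout arrays and no count over the 8 is given. Igha, the heavy chain of IgA, read 306.3, 332.6 and 452.1 in wild-type SpV, 328.9, 400.7 and 199.2 in wild-type HVT, 191.9, 6393.6 and 5700.1 in knockout SpV and 1106.8, 664.4 and 284.1 in knockout HVT lungs. The kappa variable gene Igkv8-30 read no more than 483.4 on the wild-type arrays and 3672.2 and 4386.2 on knockout SpV arrays 2 and 3. These probe sets were gathered after the values of Jchain had been seen and got no test as a list.

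Among plasma cell and immunoglobulin genes, 9 of 18 listed genes were tested and 0 passed for genotype at rest over 12 arrays, with 8 higher and a median of 0.26 (all probe sets -0.02). Igha had 2.39 ± 1.0 (adjusted p = 0.338), and 4.0 without knockout SpV array 1 (adjusted p = 0.000589), where it and Creld2, a chaperone of the endoplasmic reticulum, rose. Without that array Igha fell with ventilation in the knockout, at -3.29 (adjusted p = 0.00371), and so did Xbp1, the transcription factor of secretory cells, at -0.64 (adjusted p = 0.0232), and Edem1, which clears misfolded glycoproteins, at -0.74 (adjusted p = 0.0228). Derl3, a factor of protein quality control in secretory cells, had 0.57 ± 0.29 at rest (adjusted p = 0.438).

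Pigr, which takes up polymers that contain J chain, separated the genotypes on every array. It read from 781 to 1482.8 on the 6 wild-type arrays, 3055.3, 3162.2 and 3272.2 in knockout SpV and 2502.8, 2786.3 and 2289.2 in knockout HVT lungs. The averaged difference was 1.36 ± 0.17 (adjusted p = 0.00116). Unlike Jchain it was, after scaling, as high on the degraded array as on the other knockout controls. The reading on that array rests on scaling, since its trimmed mean before normalization was 73.4. Pigr was the 1 called member of 4 tested genes of immunoglobulin transport and Fc receptors, and the neonatal Fc receptor Fcgrt had -0.41 ± 0.15 (adjusted p = 0.146).

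B cell surface and signalling genes had 20 of 28 listed members tested and none called for any contrast over 12 arrays. For the averaged genotype difference 15 were higher, with a median of 0.18 against 0 for all probe sets, and the smallest p belonged to the tetraspanin Cd37 (0.37 ± 0.14, adjusted p = 0.163) and to Ly6d (0.69 ± 0.29, adjusted p = 0.212). Without knockout SpV array 1, Ly6d rose (0.92, adjusted p = 0.0402), and the activation marker Cd83 and the receptor kinase Syk fell with ventilation in the knockout (-0.80, adjusted p = 0.0458, and -0.81, adjusted p = 0.0485). With ventilation 16 were lower in the wild type and 15 in the knockout, at medians of -0.25 and -0.17. Of 11 B cell transcription factors tested, 0 were called, and the averaged genotype difference had a median of -0.02. Ebf1, which specifies the B lineage, had -0.60 ± 0.19 (adjusted p = 0.0995), and Pou2af1, a coactivator of immunoglobulin genes, had 0.83 ± 0.34 (adjusted p = 0.201), or 1.11 without knockout SpV array 1 (adjusted p = 0.0413).

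MHC class II genes, the partners of Cd74, had 13 of 16 listed members tested and 0 called over 12 arrays. With ventilation in the knockout 12 of 13 were lower, at a median of -0.26, or -0.50 without knockout SpV array 1, where H2-Ab1 and H2-DMa fell (-0.91, adjusted p = 0.0393, and -0.94, adjusted p = 0.0172). Of 5 tested niche and survival factors, Cxcl12, a chemokine that holds B and plasma cells in tissue, fell in the knockout, with an averaged difference of -1.16 ± 0.23 (adjusted p = 0.0204). Its signals were 2096.3, 2636.1 and 2298.9 in wild-type SpV, 1008.6, 1586.4 and 925.4 in wild-type HVT, 495.2, 1134.7 and 1203.9 in knockout SpV and 426.4, 764.4 and 646.8 in knockout HVT lungs. Cxcl13, which attracts B cells, had 0.76 ± 0.30 (adjusted p = 0.185).

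**Figure D4:**
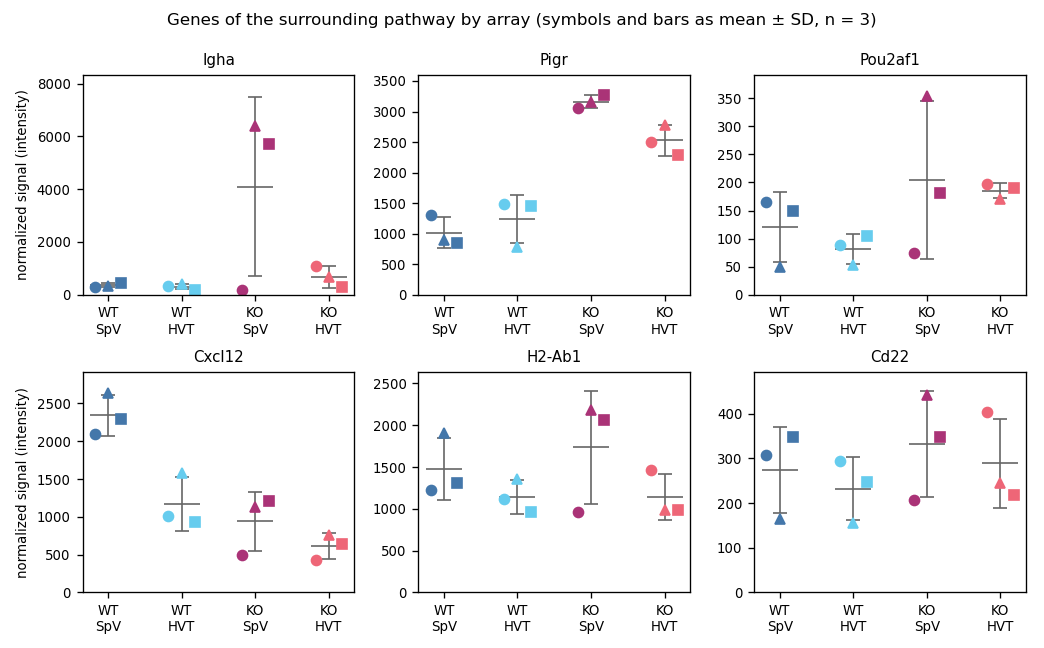
Normalized signal (intensity, linear axis from 0) of 6 genes of the surrounding pathway on every array, with symbols for arrays 1 (circle), 2 (triangle) and 3 (square) and bars for the mean ± SD (n = 3). Igha repeats the Jchain picture with 6393.6 and 5700.1 on knockout SpV arrays 2 and 3, Pigr is at 2289.2 or above on all knockout arrays, and Cxcl12 is lower in the knockout.

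Summed markers of all leukocytes, neutrophils and dendritic cells were highest on knockout SpV arrays 2 and 3, but not every sum followed. On array 3 the sums for B cells (958.5), T and NK cells (1974.2) and lung macrophages (16432.4) lay within the wild-type ranges given below. Sums follow their brightest genes, and the macrophage sum there was mostly Lyz2 (13475.7). Single markers differed: Pou2af1, Cd3d, Cd3g, Mrc1 and Cd68 read above every wild-type array on arrays 2 and 3. On array 3 the other markers of these lists that passed the filter did not. The summed signal of 5 markers of all leukocytes ran from 4647.8 to 5953.5 over the wild-type arrays, from 5060 to 11007.7 in knockout SpV and from 4793 to 7687.7 in knockout HVT lungs. The 6 neutrophil markers on the array summed to 3476.6 to 8332.6 over the wild-type arrays, 5300.9 to 20803.2 in knockout SpV and 1972.9 to 2831.7 in knockout HVT lungs. The B cell markers on the array, of which 6 of 7 passed the filter and Pax5 did not, summed to 504.7 to 1154.1 in the wild type, 755.8 to 1555.5 in knockout SpV and 876.1 to 1146.1 in knockout HVT lungs. Plasma cell markers (4 of 5 passed, Tnfrsf17 did not), which include Igha, summed to 3366.2 to 4032.6 in the wild type, 5733.4 to 9386.8 in knockout SpV and 4238.3 to 4772.8 in knockout HVT lungs. This sum is carried by Sdc1 and Igha. On knockout SpV array 1, at 5733.4, Sdc1 read 5062.8 after scaling (wild type 2576.9 to 3285) and Igha only 191.9. Prdm1 went the other way there, at 97.2 against 238.4 to 318.5 in the wild type. In knockout HVT lungs Sdc1 read 3193.8 to 3469.5 and Prdm1 181.3 to 255.2. T and NK markers (9 of 11 passed) summed to 1729.7 to 2413.5 in the wild type and 1539.8 to 2872.3 in the knockout. Dendritic cell markers (3 of 6 passed; Xcr1, Ccr7 and Batf3 did not) summed to 690.8 to 861.7 in the wild type, 756.1, 1417.5 and 1725.3 on knockout SpV arrays 1, 2 and 3, and 717.3 to 874.6 in knockout HVT lungs. Lung macrophage markers (5 of 6 passed, Marco did not) summed to 14332.6 to 19003.6 in the wild type, 6167.2, 20242.6 and 16432.4 on the same knockout SpV arrays, and 8556.6 to 11753 in knockout HVT lungs. The high dendritic cell sums were carried mainly by Itgax, at 855.7 and 907.7 on knockout SpV arrays 2 and 3 against 316.7 to 405.4 in the wild type. Cd209a (157.7 and 169.8) lay within its wild-type range of 71.6 to 215.9. Flt3 lay within its range of 76.4 to 174.1 on array 2 (162.5) and above it on array 3 (273.3). The part of all these cell types in the results was not tested. Of the thymus markers 0 of 5 passed the filter, and of the 2 lymph node or high endothelium markers on the array 0 passed.

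The genes most like each member over the 12 arrays, by Pearson's r of log2 signal among 9346 other genes, differed between members. Jchain was closest to Igkv8-30 (r = 0.98), Igha (0.95) and Atp6v0e2 (0.94), and without the 2 arrays farthest from its median, knockout SpV arrays 2 and 3, these were 0.92, 0.66 and 0.65. Ighm 1427351_s_at was closest to Bpifa1, a secreted airway protein (0.95), the atrial myosin light chain Myl4 (0.94) and lactoferrin, Ltf (0.94). Without its 2 farthest arrays, knockout HVT array 1 and knockout SpV array 2, these were 0.92, 0.95 and 0.93. Cd79a and Cd79b were each other's closest gene (0.92), followed by Rac2 (0.85) and Fcrla (0.79) for Cd79a and by Ltb (0.83) and Dnaja4 (0.82) for Cd79b. Ms4a1 was closest to Tmem230 (0.84), Vnn1 (0.84) and Ly6d (0.82). For these 3 members the 2 farthest arrays were knockout SpV array 2 and wild-type HVT array 2. Without them r was 0.82 between Cd79a and Cd79b, 0.81 for Rac2, 0.65 for Fcrla, 0.8 for Ltb and 0.59 for Dnaja4. For Ms4a1 it was then 0.87, 0.7 and 0.59. Cd74 was closest to Cst3 (0.95), Ogn (0.95) and the MHC class II gene H2-Ab1 (0.94). Without its 2 farthest arrays, knockout SpV arrays 1 and 2, these were 0.93, 0.94 and 0.92. All of these values share the arrays and their normalization.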

How the data were processed

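The deposited values are linear signal intensities of probe sets on 12 arrays, made by the authors with GCOS 1.4 per the submitters' processing notes. A scaling to an average of 500 that the design text describes is not seen in the values, so each array was scaled to a mean of 500, trimmed by 2% at each end, and the arrays were quantile normalized. The 64 AFFX controls were left out. Probe sets with a scaled signal of at least 100 on at least 3 arrays were fitted in limma 3.58.1 (R 4.3.3; eBayes with an intensity trend, 8 residual degrees of freedom) as 4 group means with 7 contrasts, two-sided, adjusted by Benjamini-Hochberg over 15882 probe sets. The number of arrays limits the precision: the median SE was 0.242 between 2 groups. With 3 arrays a group, the smallest exact permutation p is 0.1. No label says that replicates come from separate animals, and p-values then measure a spread among samples that may be technical. The annotation names 1 gene for 20380 probe sets, several for 691 and none for 1555, and members were taken from the first kind. List genes were read from their brightest probe set. Within a list, named were called genes (at most 4), or otherwise those with the smallest p, and 3 genes most like each member. Members and lists were chosen with earlier results of these data known. The script was tested on simulated data.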

Additional observations from a re-analysis of the deposited data

Results flagged for a closer look

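Signal appeared in 2 Ighm probe sets that the comparisons left out as too dim. On knockout SpV array 3, 1427756_x_at read 390.1 and 1425324_x_at read 247.8, against at most 24.4 and 44.2 on the wild-type SpV arrays. Knockout SpV array 2 was next highest for both, at 177.7 and 158.6.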

How the results depend on the processing

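Counts of called members moved with several settings. With the actin ratio as a covariate they were 1 for ventilation in the knockout (of 125 probe sets called in all), 4 for genotype at rest (582), 3 for genotype under ventilation (213), 4 averaged (914) and 2 for averaged ventilation (756). Without scaling they were 0 for genotype at rest (6 in all) and 0 averaged (128), and with 1 probe set per gene 0 (31) and 1 (344). At rest the count was 0 without the filter (63 in all) and 0 without the intensity trend (67), where the main count was 1 (80). Leaving out 1 array gave 0 to 4 for ventilation in the knockout, 0 to 5 for genotype at rest, 0 to 3 under ventilation, 0 to 1 for the interaction, 0 to 5 averaged and 0 to 4 for averaged ventilation, each upper end without knockout SpV array 1. Of 11 arrays, 2 then stand for the knockout controls. The cause of these moves was not tested.

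With the replicate number as a block, Ighm 1427870_x_at at rest had 1.45 (adjusted p = 0.0572) and the count at rest was 0 (91 in all). Same-numbered arrays were not alike throughout: over 18 such pairs r ran from -0.18 to 0.38, and 6 were above 0.1. These values cannot exclude a pairing, and the main fit used none.

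Without scaling the median of all probe sets shifted to -0.46 for genotype at rest, -0.77 under ventilation, -0.60 averaged and -0.27 for ventilation in the knockout, and uncalled members changed sign. Ventilation in the knockout gave 0 for Ighm 1427351_s_at, -0.06 for Ighm 1427329_a_at, -0.19 for Ms4a1 1423226_at, -0.21 for Ms4a1 1450912_at. Genotype under ventilation gave -0.43 for Ighm 1427870_x_at, -0.48 for Ighm 1452535_at, -0.38 for Cd79a, -0.34 for Cd79b, -0.10 for Ms4a1 1423226_at, -0.15 for Ms4a1 1450912_at. Averaged genotype gave -0.24 for Ighm 1452535_at, -0.37 for Cd79a, -0.41 for Cd79b, -0.14 for Ms4a1 1423226_at, -0.23 for Ms4a1 1450912_at. Genotype at rest gave -0.35 for Cd79a, -0.18 for Ms4a1 1423226_at, -0.51 for Cd74. With the trimmed mean alone, sign changes were as follows. Ventilation in the wild type gave -0.04 for Ighm 1427870_x_at. Genotype under ventilation gave 0.05 for Ighm 1425247_a_at. With equal medians these were as follows. Genotype under ventilation gave 0.01 for Ighm 1425247_a_at. Genotype at rest gave -0.01 for Cd74. With the actin ratio they were as follows. Ventilation in the wild type gave -0.08 for Ighm 1427870_x_at, -0.12 for Ighm 1425247_a_at. Genotype under ventilation gave 0.27 for Ighm 1425247_a_at, 0.19 for Cd74. Averaged genotype gave 0.18 for Cd74. 

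Leaving out 1 array turned the sign of these uncalled values, given as lowest to highest. Ventilation in the knockout gave -0.39 to 0.55 for Ighm 1427351_s_at, -0.36 to 0.78 for Ighm 1427329_a_at, -0.43 to 0.16 for Cd79a, -0.40 to 0.18 for Cd79b, -0.02 to 0.37 for Ms4a1 1423226_at, -0.19 to 0.56 for Ms4a1 1450912_at. Ventilation in the wild type gave -0.11 to 0.09 for Ighm 1427870_x_at, -0.06 to 0.29 for Ighm 1452535_at, -0.29 to 0.34 for Ighm 1425247_a_at, -0.26 to 0.06 for Jchain. Genotype under ventilation gave -0.12 to 0.22 for Ighm 1452535_at, -0.39 to 0.41 for Ighm 1425247_a_at. Genotype at rest gave -0.36 to 0.23 for Cd79a, -0.46 to 0.12 for Cd79b, -0.54 to 0.21 for Ms4a1 1450912_at, -0.23 to 0.53 for Cd74. Averaged genotype gave -0.02 to 0.28 for Cd79a, -0.04 to 0.25 for Cd79b, -0.07 to 0.31 for Ms4a1 1450912_at, -0.20 to 0.18 for Cd74. Signal near the filter limits what the dim Ighm probe sets can show.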
